A study of Mus musculus with 2 samples.

Results

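Chaperone-high tumour barcodes were the cells of CT26 tumours with the most RNA of 4 heat shock genes, Cryab, Hspa1b, Hsph1 and Dnajb1. Both libraries together held 32516 cell barcodes. A tumour gate kept 13246 of them, and the 8% of gated barcodes with the highest score over those 4 genes, 1059 in all, formed the chaperone-high group. Of these, 179 came from the vehicle library and 880 from the WQ-2101 library, and the other 12187 gated barcodes served for comparison. The gate asked for at least 3000 unique molecular identifiers (UMIs, 1 per captured RNA molecule), at most 15% mitochondrial UMIs, at least 3 UMIs and 200 per 1000000 UMIs of Hmga2, and 0 UMIs of the leukocyte gene Ptprc. Hmga2 encodes a chromatin protein that marks the tumour barcodes here.

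CT26 is a mouse colorectal carcinoma line, and it was grown under the skin of wild type BALB/c mice that were 5 weeks old. One group received vehicle and the other 20 mg/kg of WQ-2101 by daily intraperitoneal injection, begun at a tumour size near 100 mm³, and tumours were taken on day 17 after implantation. The series title concerns inhibition of PHGDH, the enzyme that opens serine synthesis. Tumours were digested at 37 °C for 30 min with neutral protease, collagenase IV and DNase I, passed through a 40 µm strainer, freed of red cells and loaded on the 10x Chromium 3′ platform, with no sort recorded. Each group was 1 library with a shared batch label, and how many mice gave each library was not stated in the sources. No value therefore has a replicate error and no test of treatment was possible. Intervals cover counting error only, exact Clopper-Pearson for shares, exact Poisson for levels and exact conditional for ratios, all at 95%.

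Background on the genes follows. Heat, toxic metals, oxidants and misfolded proteins free the transcription factor HSF1, which binds heat shock elements, repeats of the 5-base unit nGAAn in alternating orientation, and switches on chaperone genes. Hspa1b encodes the inducible HSP70, which binds exposed stretches of unfolded proteins and releases them in cycles of ATP use. Dnajb1 is an HSP40 partner that delivers clients to HSP70 and starts ATP hydrolysis. Hsph1 (HSP110) exchanges the nucleotide so that the client is let go, and Cryab, a small heat shock protein, holds unfolded proteins without ATP. Tumour cells often carry high chaperone levels.

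The score was the mean, over the 4 genes, of ln(1 + counts per 10000 UMIs) in each barcode. It had no gap: the lowest chaperone-high score was 1.275 and the highest score outside was 1.274. Within 0.1 of the limit lay 559 barcodes, 250 inside and 309 outside, so on this score the group is the upper end of a continuous range. A cut by rank leaves near neighbours on both sides, so whether a separate type exists was not tested. The median over gated barcodes was 0.418 in vehicle and 0.633 in WQ-2101. The median within the group was 1.56 and 1.53, and the highest single score was 2.51 and 3.48.

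**Figure D1:**
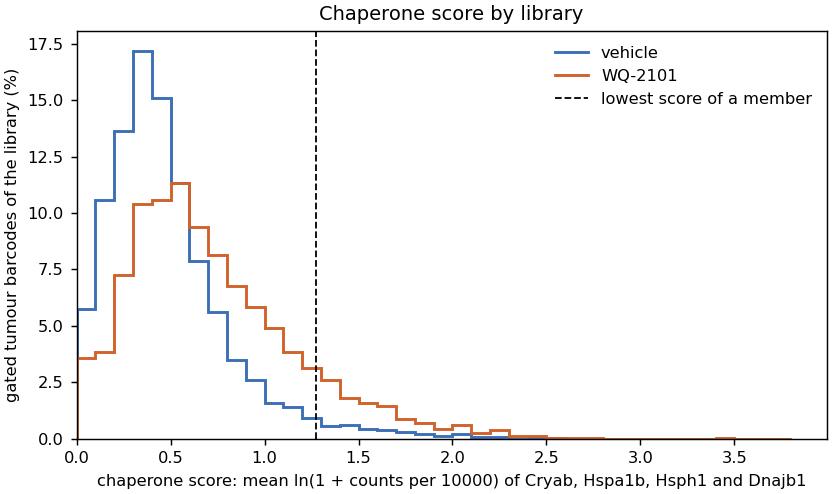
Distribution of the 4-gene chaperone score (horizontal axis, mean ln of 1 plus counts per 10000) over gated tumour barcodes of the vehicle and WQ-2101 libraries, with the group's lower limit at 1.275 marked. The vehicle distribution sits lower, with a median of 0.418 against 0.633, and both pass through the limit with no gap.

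The chaperone-high share was 3.10% of gated barcodes in vehicle (2.66 to 3.58) and 11.8% in WQ-2101 (11.1 to 12.5), a ratio of 3.81 (3.24 to 4.50). Gated barcodes were deeper in vehicle, with a median of 16694 UMIs against 13475, so every gated barcode was also reduced at random to 3000 UMIs and ranked again. The shares were then 3.48% (3.02 to 3.98) and 11.6% (10.9 to 12.4), a ratio of 3.35 (2.87 to 3.92), and 68.0% of the group, 720 barcodes, stayed in it. With the score limit held at its original value instead, the reduced shares were 2.73% and 9.03%. Leukocyte barcodes of the same libraries (at least 3 UMIs of Ptprc and 0 of Hmga2) give the background for such a score. Of 2032 in vehicle, 15 lay above the limit (0.738%, 0.414 to 1.22), and of 1536 in WQ-2101, 23 did (1.5%, 0.952 to 2.24). Leukocyte scores thus also stood higher in the WQ-2101 library, with medians of 0.119 and 0.198. Leukocytes were shallower, at 8153 and 6700 UMIs. Whether the difference in share belongs to treatment or to the handling of either tumour cannot be told apart with 1 library a group.

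The 4 genes chose the group, so their levels describe it and are no finding. Levels are counts per 1000000 UMIs (CPM) summed over a group of barcodes. Hspa1b (ENSMUSG00000090877, chr17:34956436-34959238 of GRCm38) stood at 495 CPM in the vehicle group (469 to 522) and 36.5 in its other gated barcodes, and at 382 (371 to 393) and 54.1 in WQ-2101. Cryab (ENSMUSG00000032060, chr9:50751325-50756636) was 494 against 50.8 CPM in vehicle and 463 against 80.3 in WQ-2101. A single vehicle barcode held 11.5% of the group's Cryab UMIs, and 16.2% of vehicle and 11.1% of WQ-2101 chaperone-high barcodes had no Cryab UMI.

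Hsph1 (ENSMUSG00000029657, chr5:149614287-149636376) was 523 against 104 CPM in vehicle and 626 against 182 in WQ-2101. Dnajb1 (ENSMUSG00000005483, chr8:83608193-83612653) was 617 against 125 CPM and 640 against 167. All 4 genes were seen together in 136 vehicle (76.0%) and 685 WQ-2101 (77.8%) chaperone-high barcodes, and in 10.5% and 15.9% of the others. Between the libraries, the group's own levels differed by log2 ratios (CPM plus 5, WQ-2101 over vehicle) from -0.37 for Hspa1b to 0.26 for Hsph1. In the other gated barcodes all 4 stood higher in WQ-2101, by 0.40 to 0.77.

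Leukocyte barcodes gave a background for free RNA in droplets, although leukocytes can make heat shock proteins themselves. In them Cryab had a UMI in 4.92% (vehicle) and 8.20% (WQ-2101) of barcodes, at 6.56 and 12 CPM. Hspa1b reached 37.6 and 106 CPM there, Hsph1 33.4 and 66.5, and Dnajb1 49.7 and 62.8. By CPM, Hspa1b in the other gated tumour barcodes, at 36.5 and 54.1, was thus at or below its leukocyte level. By share of barcodes with a UMI, Hspa1b was above leukocytes, at 33.65% against 11.96% in vehicle and 39.66% against 18.82% in WQ-2101. With UMIs reduced at random, these shares were 9.23% against 6.25% and 14.14% against 12.17%. Cryab in the other gated tumour barcodes, with a UMI in 35.2% and 46.1% of them, was therefore above the leukocyte share, at a greater depth.

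Scoring barcodes on 3 of the genes and reading the one left out keeps that gene's own counts out of the ranking. The 4 genes that define the group were chosen with earlier results of these data known. The values in this paragraph therefore describe how the 4 vary together and are no independent support. With Hspa1b left out, it was 349 against 41.3 CPM in vehicle and 296 against 64.9 in WQ-2101, log2 ratios of 2.93 and 2.11. Hsph1 was 419 against 106 and 542 against 195 (1.94 and 1.45), and Dnajb1 453 against 128 and 546 against 180 (1.78 and 1.57). Cryab was 214 against 58.1 and 289 against 102 (1.80 and 1.46). Each of the 4 was thus higher where the other 3 were high, in both libraries. When each barcode's UMIs were divided at random, with the group chosen on one part and levels read from the other, the log2 ratios were 3.37 and 2.48 for Hspa1b, 3.00 and 2.2 for Cryab, 2.05 and 1.6 for Hsph1, and 2.03 and 1.73 for Dnajb1.

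Promoter sequences are printed because HSF1 targets are known by repeats in them. They come from RefSeq on GRCm38.p6, are read 5′ to 3′ on the gene's strand, and capitals mark a pair of facing units, GAANNTTC or TTCNNGAA, searched on both strands in the 250 bases before each start. The whole upstream window of Hspa1b (chr17:34959239-34959488, minus strand) holds 1 such pair, 104 to 97 bases before the start:
Hspa1b: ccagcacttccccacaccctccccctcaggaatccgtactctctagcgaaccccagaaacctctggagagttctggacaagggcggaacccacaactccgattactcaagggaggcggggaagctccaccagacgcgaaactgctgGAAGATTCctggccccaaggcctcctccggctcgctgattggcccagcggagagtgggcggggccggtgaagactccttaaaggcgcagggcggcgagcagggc
The window of Hspa1a, the neighbouring copy, differs from it at 3 of 250 positions. Shorter stretches of 30 bases show the pair in Hsph1 (chr5:149636351-149636380, minus strand) and in co-chaperone genes described below, Dnaja1 (chr4:40722333-40722362, plus), Dnajb4 (chr3:152193846-152193875, minus) and Zfand2a (chr5:139484669-139484698, minus). Hspe1 (chr1:55088053-55088082, plus) is shown because it holds the longer motif of 3 units, GAANNTTCNNGAA or TTCNNGAANNTTC, with the pair lying inside it. Some of these windows are not outside genes. The window with the pair overlaps annotated exons at 218 of 250 bases in Dnaja1 and at all 250 in Hspe1. In Hsph1, Zfand2a and Dnajb4 the overlap is 61 bases or fewer, but the Dnajb4 window lies inside the gene (chr3:152178511-152210302). The other windows of Dnaja1 and Dnajb4 hold no pair.
Hsph1: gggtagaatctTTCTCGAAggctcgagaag
Dnaja1: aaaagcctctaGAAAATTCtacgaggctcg
Dnajb4: gttcgttcgttcgctgTTCTAGAAagtaca
Zfand2a: ttgcctgactgTTCTAGAAaataggcgggg
Hspe1: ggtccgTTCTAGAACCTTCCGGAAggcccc

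The pair was in 12.8% of all 32851 windows and the 3-unit motif in 0.466%. Of the 20 genes that led the chaperone-high group in both libraries, named below, 16 had a window and 7 of these held the pair in at least 1 window (43.8%): Bdnf, Dnaja1, Dnajb4, Gdf15, Gpnmb, Numb and Zfand2a. The share over all gene symbols was 14.5%, and over the genes tested 11.8%. Genes with several windows have more chances: by window, 7 of 29 held the pair (24.1%), against 12.8% of all windows and 9.80% of those of tested genes. Of the 63 tested genes of the 7 lists for chaperones, co-chaperones and mitochondrial proteases, 50 had a window. The pair was in 10 of them (20%, against 14.5% of all symbols and 11.8% of tested genes). The longer motif was in 3 (6%, against 0.514% of all symbols and 0.552% of tested genes). These 3 include Hspe1 and Hspd1, which share a single site (chr1:55088053-55088082), so that site is counted for both. Dnajb1 and Bag3 held neither in these windows, and Cryab had no entry. A match describes letters and is no evidence of a bound site.

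Beyond the markers, 6573 genes had a mean of at least 20 CPM over the groups. A gene counted as different where CPM plus 5 changed by at least 1.5-fold. Against other gated barcodes, 147 genes (2.24%) were higher and 437 (6.65%) lower in vehicle, and 45 (0.685%) were higher and 14 (0.213%) lower in WQ-2101. In both libraries 36 genes (0.548%) were higher and 10 (0.152%) lower, and none passed in opposite directions. The median of all tested genes was -0.15 in vehicle and -0.08 in WQ-2101. Centred on it, vehicle had 282 higher and 129 lower, WQ-2101 67 and 3, and both together 59 and 2. Vehicle ratios tended to be larger, and the vehicle group was also the more extreme slice of its library. These genes come from the same barcodes that the score chose, so the counts describe the group.

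Co-chaperones of the HSP70 machine were among the leading genes in both libraries. Bag3, which links HSP70 to autophagy and is itself a classic HSF1 target (chr7:128523616-128546981), was 147 CPM in the vehicle group (133 to 162) against 45.8 in other barcodes, and 111 (105 to 117) against 43.0 in WQ-2101, log2 ratios of 1.58 and 1.28. Dnajb4, an HSP40 partner, was 133 against 43.1 and 114 against 44.1 (1.52 and 1.28). Both were thus about level between the libraries among the other barcodes. Dnaja1, another HSP40 partner, was 605 against 258 and 525 against 274 CPM (1.21 and 0.92). Zfand2a, a stress-induced regulator of the proteasome, was 55.7 against 15.3 and 46.3 against 17.6 (1.58 and 1.18).

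The rest of the chaperone network was uneven. Of 13 tested genes for HSP90 and its co-chaperones, 1 was higher in both libraries, the inducible cytosolic Hsp90aa1, with 1866 against 1015 CPM in vehicle and 1658 against 1074 in WQ-2101 (0.88 and 0.62). Its constitutive relative Hsp90ab1 had ratios of 0.36 and 0.19. Of 7 HSP40 partners, 2 were higher in both, Dnaja1 and Dnajb4. Of 11 exchange factors and regulators, 1 was higher in both, Bag3. St13, which steadies the ADP-bound form of HSP70, passed in vehicle alone (431 against 279 CPM, 0.62; 427 against 330, 0.37).

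Among 5 tested HSP70 and HSP110 genes 0 passed: the constitutive Hspa8 was 2243 against 1957 CPM and 2339 against 2055 (0.20 and 0.19), and Hspa4l had ratios of 0.32 and 0.44. Hspa1a, a near-identical copy of Hspa1b, read 2.53 against 1.84 CPM and 8.31 against 4.81, and the split of reads between the copies is uncertain. The small heat shock protein Hspb8, a partner of BAG3, was 63.7 against 41.7 and 65.2 against 46.6 (0.56 and 0.44). Hspb1, abundant in many stressed cells, was at 2.17 against 0.846 CPM and 1.99 against 1.47, too low to count. Hsf1 itself, which is controlled mainly as a protein, had ratios of -0.24 and -0.37.

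**Figure D2:**
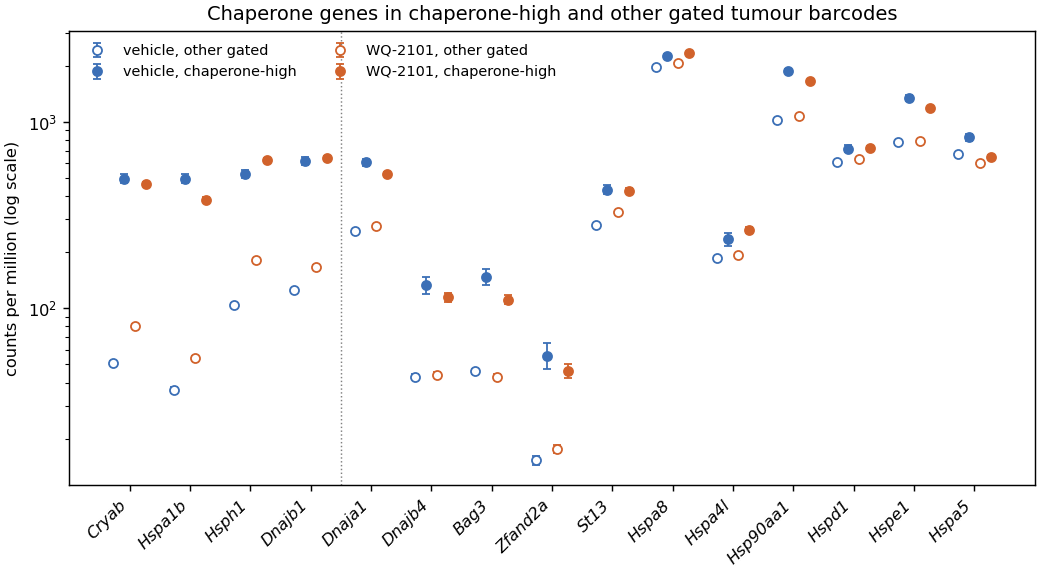
Levels (vertical axis, CPM, log scale) of chaperone genes (horizontal axis) in chaperone-high and other gated barcodes of each library, with 95% Poisson intervals for counting error. The 4 score genes separate by construction. Bag3, Dnajb4, Dnaja1 and Hsp90aa1 lie higher in the chaperone-high group of both libraries, and Hspa8 nearly overlaps.

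Few genes of the chaperonin, mitochondrial and ER chaperone lists passed 1.5-fold. Medians were -0.09 and -0.08 for the mitochondrial list and 0.01 and -0.03 for the ER list. Of the lists described above, HSP70 and HSP110 had medians of 0.20 and 0.13, and HSP40 partners 0.21 and 0.16. HSP90 and its co-chaperones had -0.05 and 0.17, and exchange factors -0.06 and -0.09. These medians, which leave out the score genes, did not separate by compartment. Genes past 1.5-fold in both libraries lay in the lists of HSP40 partners (2 of 7), HSP90 (1 of 13) and exchange factors (1 of 11). The mitochondrial, ER, chaperonin, and HSP70 and HSP110 lists had 0, and over all tested genes the share was 0.548%. The cytosolic chaperonin CCT and prefoldin list had 0 of 14 genes higher or lower in either library, with medians of -0.11 and -0.13. Of 11 mitochondrial chaperones and proteases, 1 passed in vehicle, Hspe1, the lid of the mitochondrial chaperonin, at 1341 against 777 CPM (0.78), with 1180 against 788 in WQ-2101 (0.58). Its partner Hspd1, with which it shares a promoter, was at 0.24 and 0.19. Of 17 genes of the ER chaperones and the unfolded protein response, 1 passed in vehicle, the ER co-chaperone Dnajb9 (57.9 against 27.7, 0.95), and 0 in WQ-2101 (32.6 against 23.7, 0.39). The main ER chaperone Hspa5 had ratios of 0.30 and 0.11.

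The proteasome list had 0 of 33 genes past 1.5-fold, medians of -0.32 and -0.22 and 32 genes below 0 in both libraries. Over all tested genes, 3844 of 6573 were below 0 in both and 1441 above. Of 13 ubiquitin and autophagy receptor genes, 2 were higher in vehicle, Sqstm1 and Gabarapl1, and 0 in WQ-2101. Sqstm1, the receptor p62 that gathers ubiquitylated cargo, was 501 against 316 CPM and 377 against 335 (0.66 and 0.17).

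**Figure D3:**
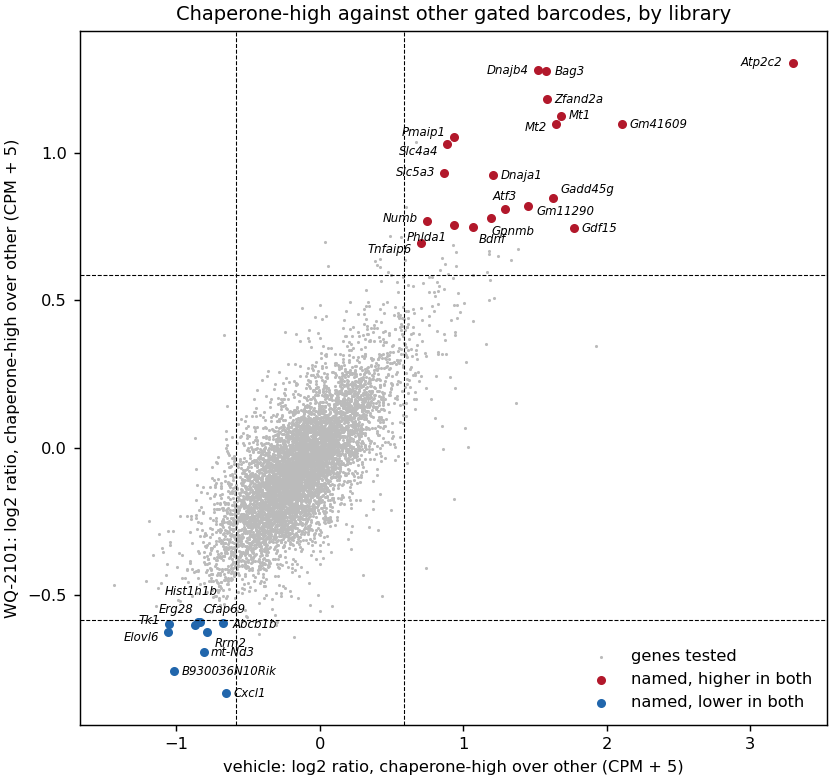
Each point is 1 of 6573 tested genes, with its log2 ratio of chaperone-high over other gated barcodes in vehicle (horizontal) and in WQ-2101 (vertical), dashed lines at 1.5-fold. The labelled co-chaperones and metallothioneins lie at the upper right in both libraries, and labelled genes such as Tk1 and Elovl6 at the lower left.

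Metallothionein RNA was also higher. Mt1 and Mt2 encode small cysteine-rich proteins that bind zinc and copper and are induced by metals, glucocorticoids and stress. Mt1 (chr8:94179082-94180327) was 4998 CPM in the vehicle group (4915 to 5082) against 1551, and 6645 in WQ-2101 (6599 to 6691) against 3044, log2 ratios of 1.68 and 1.13. Mt2 (chr8:94172664-94173568) was 1457 against 462 and 1665 against 775 (1.65 and 1.10). Mt1 and Mt2 were thus higher in the chaperone-high group of each library, and other barcodes of the WQ-2101 library lay between the vehicle's other and chaperone-high barcodes. The list's 4 tested genes had medians of 0.85 and 0.59. Of these only Mt1 and Mt2 passed 1.5-fold, and 1 gene was below 0 in both libraries, so the medians rest on few genes. The median barcode devoted 40.4 of 10000 UMIs to the list in the vehicle group against 15.7, and 66.8 against 31.4 in WQ-2101.

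Of the 34 pathway lists, the hypoxia list had the most members higher. Of 15 tested, 9 passed in vehicle and 4 in WQ-2101, the same 4 in both, with medians of 0.87 and 0.49 and 13 genes above 0 in both. Bnip3, a mitochondrial receptor for autophagy, was 220 against 94.3 CPM and 257 against 161 (1.18 and 0.66). Ero1l, an ER oxidase, was 153 against 65.6 and 164 against 107 (1.17 and 0.59). P4ha1, a collagen prolyl hydroxylase, was 279 against 142 and 262 against 164 (0.95 and 0.66). Higd1a, a small mitochondrial protein, was 360 against 191 and 461 against 305 (0.90 and 0.59). Vegfa, the vessel growth factor chosen after its values were seen, did not follow them, at 147 against 148 and 197 against 178. Glycolysis genes had medians of 0.19 and 0.12, with 0 of 13 higher in either library and 1, the lactate exporter Slc16a3, lower in vehicle.

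Many genes of cell division passed as lower in the vehicle chaperone-high group, and few in WQ-2101. Of 17 S phase genes, 10 were lower in vehicle and 1 in WQ-2101, Rrm2, with medians of -0.60 and -0.30 and all 17 below 0 in both. Rrm2, the small subunit of ribonucleotide reductase, was 27.1 against 50.4 CPM and 24.2 against 40.0 (-0.79 and -0.63). Tk1, thymidine kinase, was 40.5 against 89.3 and 49.9 against 78.0 (-1.05 and -0.60). Hist1h1b, a linker histone made in S phase, was 115 against 214 and 134 against 206 (-0.87 and -0.60). Of 24 G2 and mitosis genes, 11 were lower in vehicle and 0 in WQ-2101, with medians of -0.53 and -0.13, the latter near the -0.08 of all tested genes, and 18 below 0 in both. Hmga2, which the gate used, was itself lower, at 750 against 1218 CPM and 890 against 1292.

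Part of the cholesterol synthesis list passed as lower in vehicle. Of 16 cholesterol synthesis genes, 7 were lower in vehicle and 0 in WQ-2101, with medians of -0.52 and -0.39 and all 16 below 0 in both. Outside that list, Erg28, an ER scaffold of sterol synthesis, was 28.2 against 54.1 and 30.2 against 48.1 CPM (-0.83 and -0.59). Elovl6, which lengthens fatty acids, was 39.8 against 88.4 and 48.9 against 78.2 (-1.06 and -0.63). Oxidative phosphorylation genes had medians of -0.26 and -0.14, with all 19 below 0 in both and 1 past 1.5-fold, in vehicle. The mitochondrially encoded mt-Nd3, outside the list, was 109 against 194 and 139 against 228 (-0.81 and -0.69).

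Phgdh (ENSMUSG00000053398, chr3:98313170-98339990), the target in the series title, was lower in the chaperone-high group of each library, below 1.5-fold. It was 219 CPM (201 to 237) against 294 in vehicle and 210 (202 to 218) against 275 in WQ-2101, log2 ratios of -0.42 and -0.38. Between libraries it was nearly level, at -0.06 within the group and -0.09 in the other barcodes. Serine synthesis and one-carbon enzymes had medians of -0.42 and -0.38, with 3 of 13 lower in vehicle, 0 in WQ-2101 and all 13 below 0 in both. ATF4 acts when amino acids run short, and its targets had medians of 0.17 and -0.08. Of 16 tested, 5 were higher in vehicle and 1 in WQ-2101, Ddit4, an inhibitor of mTORC1 that hypoxia also induces (44.5 against 15.9 and 43.9 against 26.2 CPM, 1.24 and 0.65).

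**Figure D4:**
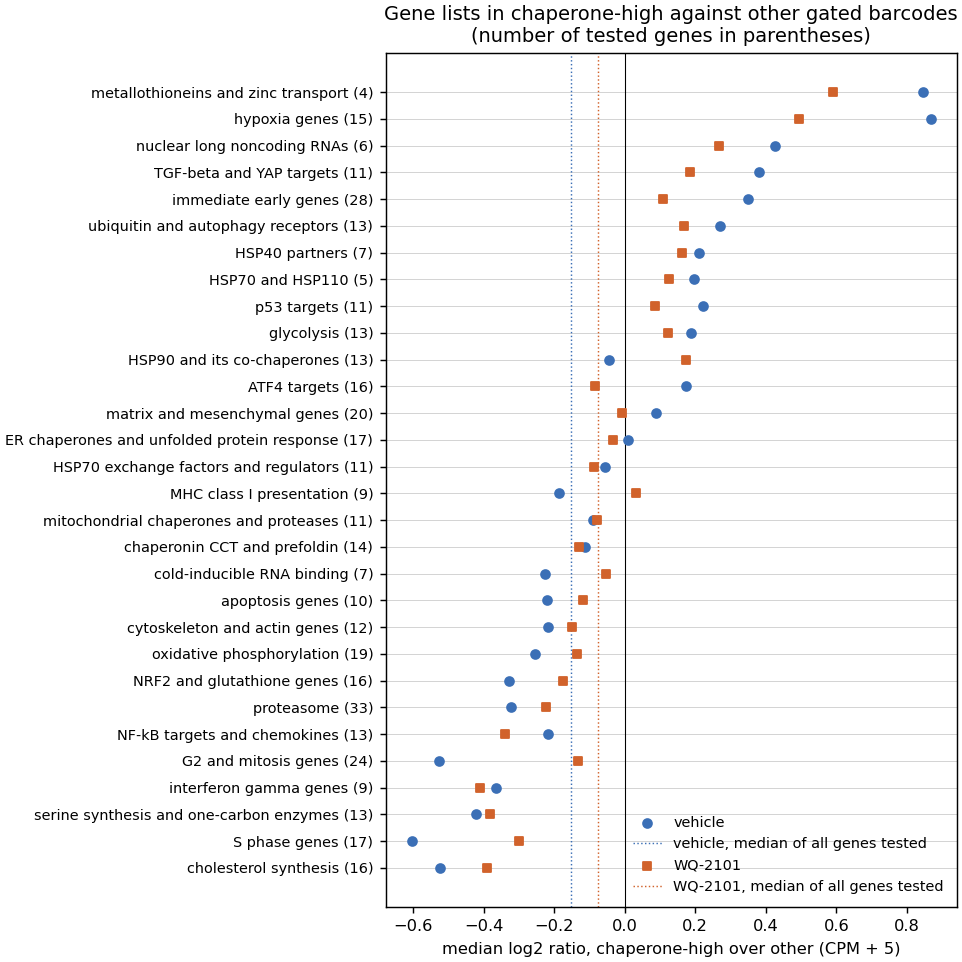
Median log2 ratio of chaperone-high over other gated barcodes (horizontal axis, CPM plus 5) for each gene list, vehicle and WQ-2101 as separate points, with the number of tested genes. Metallothionein and hypoxia lists lie farthest to the right (0.85 and 0.59, 0.87 and 0.49), and S phase, cholesterol and serine lists to the left in both libraries. The metallothionein list has 4 tested genes, of which only Mt1 and Mt2 passed 1.5-fold.

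Immediate early genes, which answer growth factors and stress within minutes, were mixed. Of 28 tested, 8 were higher in vehicle and 3 in WQ-2101, the same 3 in both: Atf3, Gadd45g and Ccn1. The list median was 0.35 and 0.11, and 1 gene, Egr3, was lower in WQ-2101. Atf3, a stress-induced repressor, was 663 against 268 CPM and 450 against 254 (1.29 and 0.81), and 14.7% of the vehicle group's UMIs came from 1 barcode. Gadd45g, a growth arrest gene, was 276 against 86.0 and 164 against 88.9 (1.63 and 0.84). Ccn1, a matrix protein and YAP target, was 245 against 126 and 140 against 85.4 (0.93 and 0.69).

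Of 11 p53 targets, 3 were higher in vehicle and 2 in both. Pmaip1 (NOXA), a trigger of apoptosis, was 33.3 against 15 and 49.6 against 21.3 CPM (0.94 and 1.05). Gdf15, a secreted stress cytokine, was 59.0 against 13.7 and 31.8 against 17.0 (1.77 and 0.74). Of 10 apoptosis genes 0 were higher, with medians of -0.22 and -0.12. Of 16 NRF2 and glutathione genes 1 was higher in both, the haem-degrading enzyme Hmox1 (36.5 against 13.4 and 26.8 against 15.1, 1.18 and 0.67), and the medians were -0.33 and -0.18. Hmox1 was the single member of that list to pass in this direction.

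The remaining leading genes had varied roles. Atp2c2, a calcium and manganese pump of the Golgi, had the highest ratios, 66.9 against 2.31 CPM and 18.6 against 4.56 (3.30 and 1.30). Few barcodes carried it: 18 of the vehicle group had a UMI and 1 of them held 29.7% of its UMIs, while 1 held 15.2% in WQ-2101. The transporters Slc4a4 (bicarbonate) and Slc5a3 (myo-inositol, an osmolyte) had ratios of 0.89 and 1.03, and of 0.87 and 0.93. Gpnmb, a membrane glycoprotein of lysosome stress, was 83.2 against 33.5 and 81.0 against 45.2 (1.19 and 0.78).

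Bdnf, a neurotrophin, was 77.1 against 34.1 and 79.8 against 45.5 CPM (1.07 and 0.75), with 10.3% of the vehicle UMIs in 1 barcode. Phlda1 had ratios of 0.93 and 0.76, Numb, an inhibitor of Notch, 0.75 and 0.77, and Tnfaip6, a hyaluronan-binding protein with 17.6% of vehicle UMIs in 1 barcode, 0.71 and 0.70. The unnamed loci Gm41609 (243 against 52.4 and 160.3 against 72.3, 2.11 and 1.10) and Gm11290 (1.45 and 0.82) completed the 20. Of the lower genes, Cxcl1, a neutrophil attractant, was 339 against 536 and 196 against 353 (-0.65 and -0.83). Abcb1b, a drug efflux pump, was at -0.67 and -0.59, Cfap69 at -0.85 and -0.59 and B930036N10Rik at -1.02 and -0.76.

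No tested gene of the immune response lists that follow was higher in the group by 1.5-fold. Interferon gamma genes had medians of -0.36 and -0.41, with 0 of 9 higher and 1, the pathway brake Socs1, lower in WQ-2101. The NF-kB and chemokine list had medians of -0.22 and -0.34, with 4 of 13 lower in vehicle and 1, Cxcl1, in WQ-2101. MHC class I presentation genes had medians of -0.19 and 0.03, with 0 of 9 past 1.5-fold. The type I interferon list had 1 tested gene, at -0.14 and 0.28. By summed CPM that list was higher in the group, 230 against 190 in vehicle and 260 against 217 in WQ-2101. MHC class I genes summed to 2797 against 2763 and 3427 against 3255. The interferon gamma and the NF-kB and chemokine lists summed lower in the group of both libraries.

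Chaperone-high barcodes were slightly shallower than the others, with median UMIs of 13537 against 16800 in vehicle and 12616 against 13652 in WQ-2101. They held fewer genes (3930 against 4639, and 3760.5 against 4141) and a slightly lower mitochondrial share (1.54% against 1.82%, and 1.79% against 1.93%). A doublet caller marked 0 and 13 of them (1.48%), against 86 (1.53%) and 106 (1.61%) of the others. The list of 14 CT26 tumour markers summed to 3442 and 3264 CPM in the group, against 3671 and 3550, but it contains Hmga2, which the gate required. Of its 9 tested genes, 1 was higher in both libraries, Phlda1 (0.93 and 0.76), while 2 were lower in vehicle and 0 in WQ-2101. Hmga2 itself was among the 2. The list's medians were -0.03 and -0.05, with 2 genes above 0 and 4 below 0 in both libraries. Cald1, Tm4sf1 and Igf2bp2, chosen after their values were seen, did not pass. Cald1 was 998 against 971 and 910 against 942, Tm4sf1 718 against 781 and 580 against 642, and Igf2bp2 176 against 141 and 191 against 154. The keratins Krt8 and Krt18 were at or near 0 throughout. The label "stressed" rests on the chaperone genes alone.

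Markers of 11 other cell types were summed in the same way. Macrophage markers were 305 CPM in the vehicle group against 370, and 454 in WQ-2101 against 524, and dendritic markers 138 against 153 and 327 against 360. T and NK, B cell, neutrophil and red cell markers each summed to 17.8 CPM or less in the group. Fibroblast markers were 621 against 457 and 292 against 327 CPM, mostly Dcn, which had a UMI in 88.8% of the vehicle group. Endothelial markers were 28.6 against 24.6 and 23.3 against 19.4, mural markers 93.0 against 87.0 and 102.5 against 102.7, keratinocyte markers 23.5 against 13.2 and 20.4 against 13.6, and muscle markers 1.81 against 3.52 and 2.58 against 3.22. Leukocyte marker RNA was thus lower or nearly equal in chaperone-high barcodes within a library, and higher in WQ-2101 than in vehicle.

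The 4 markers did not pick the same barcodes. Ranking by Cryab alone shared 81 vehicle and 431 WQ-2101 barcodes with the group, Hspa1b alone 111 and 476, Hsph1 alone 90 and 493, and Dnajb1 alone 97 and 487. Bag3 had log2 ratios of 1.57 and 1.27 in the top 8% by Hsph1 but 0.29 and 0.61 in the top 8% by Cryab. Division genes were lowest by Cryab, with G2 and mitosis medians of -0.83 and -0.56 and cholesterol medians of -0.88 and -0.63. Immediate early genes had medians of -0.12 and -0.16 by Cryab and of 0.75 and 0.27 by Dnajb1, where Atf3 reached 1.6 and 1.03. Hypoxia medians were 0.43 and 0.36 by Cryab, 0.72 and 0.36 by Hspa1b, 0.62 and 0.31 by Hsph1, and 0.69 and 0.58 by Dnajb1.

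Levels along the score are given for selected genes. Gated barcodes of both libraries were ranked together and divided at the 50th, 75th, 92nd and 96th percentiles, and the top 2 divisions make up the chaperone-high group. In WQ-2101, Bag3 went from 37.1 CPM in the lowest division through 41.3, 54.5 and 84.6 to 138.5 in the highest, and in vehicle from 41.1 through 49.7, 71.7 and 127 to 164. Dnaja1 went from 242 to 607 in WQ-2101 and from 237 to 707 in vehicle. Mt1 went from 2363 through 2909, 4303 and 5653 to 7657 in WQ-2101, and from 1304 through 1836, 2668 and 3292 to 6530 in vehicle. Other leading genes did not follow such a course: vehicle Atp2c2 stood at 1.83, 3.60, 2.60, 16.8 and 111.9 CPM, and vehicle Tnfaip6 at 34.3, 47.1, 59.3, 91.8 and 46.0.

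Fdps, of cholesterol synthesis and, like Top2a, chosen for this plot after its values were seen, went the other way, from 379 to 146 CPM in vehicle and from 363 to 236 in WQ-2101, where its second division stood at 371. Top2a, the mitotic topoisomerase, was 492, 438, 365, 263 and 298 in vehicle, with its low in the fourth division, and 493, 527, 466, 429 and 413 in WQ-2101. Phgdh went from 305 to 196 in vehicle and from 294 to 199 in WQ-2101, lower in each successive division. The vehicle's top divisions held 83 and 96 barcodes, against 446 and 434.

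**Figure D5:**
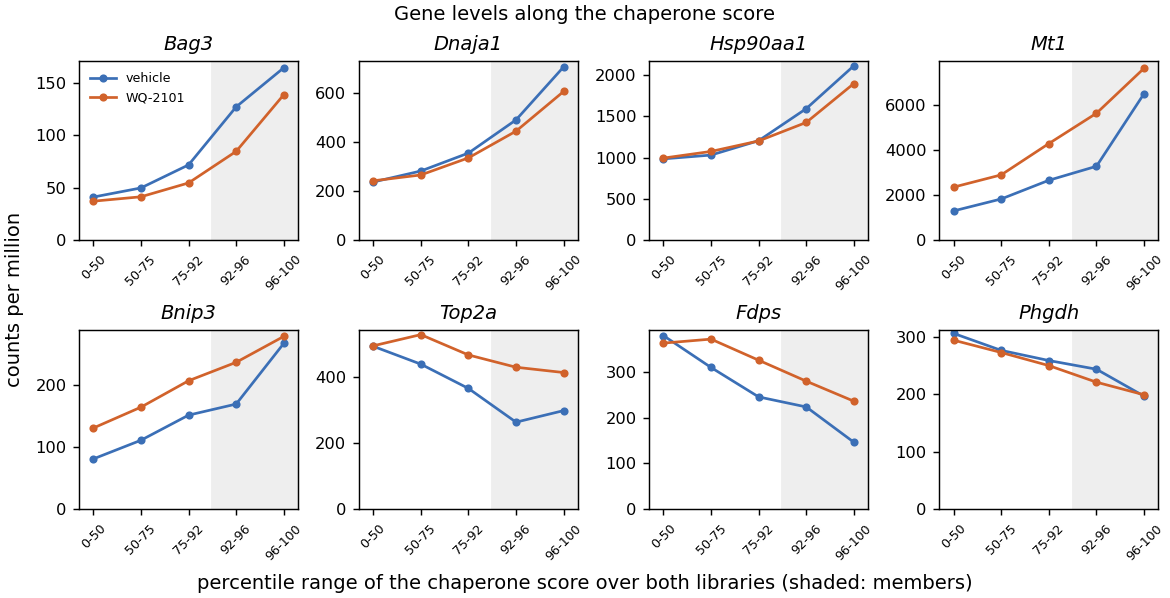
Level (vertical axis, CPM) of selected genes in 5 successive divisions of the pooled chaperone score (horizontal axis, percentile), vehicle and WQ-2101 as separate lines. Bag3, Dnaja1 and Mt1 climb toward the highest division in both libraries, and Fdps and Phgdh end lower than they began.

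Within the chaperone-high group, 128 genes (1.95%) stood higher and 56 (0.852%) lower in WQ-2101 than in vehicle, around a median of 0.05. In the other gated barcodes, at a far larger number of UMIs, 45 (0.685%) were higher and 21 (0.319%) lower, around -0.02. Centred on the median, the group had 96 higher and 77 lower. Its vehicle side rests on 179 barcodes, so single barcodes weigh on its low genes.

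The leading higher genes were largely those of antigen presentation. Cd74, the class II invariant chain, was 57.2 CPM in vehicle (48.6 to 66.8) and 148 in WQ-2101 (141 to 155), a log2 ratio of 1.30, against 1.27 in the other barcodes. The class II genes H2-Aa (36.5 and 89.4 CPM), H2-Eb1 (35.1 and 77.5) and H2-Ab1 (42.7 and 88.0) had ratios of 1.18, 1.04 and 0.96 in the group, and of 1.08, 1.10 and 1.06 outside it. The summed macrophage and dendritic markers given above were higher in WQ-2101 too, and their part in the class II levels was not tested. Psmb9, an immunoproteasome subunit, was 26.4 and 56.7 CPM (0.97 in the group and 0.67 outside). Interferon gamma genes had a median of 0.51 in the group, 4 of 9 higher and 1 lower, and of 0.77 outside, 6 higher.

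Krt14, a basal keratin, was 97.0 and 209 CPM (1.07 in the group and 1.12 outside). Sgcd, a membrane protein of the dystrophin complex, was 82.5 and 178 (1.07 and 0.53). Edil3, an integrin ligand, was 10.9 and 30.0 (1.14 and 0.35, but -0.09 in the group on barcodes reduced to 3000 UMIs), and Adamts6, a matrix protease, 20.6 and 44.6 (0.95 and 0.30, but 0.37 in the group with ranking within each library). The last 3 had larger ratios inside than outside the group, and the difference of these ratios was not tested. In the vehicle group Edil3 and Adamts6 rested on few UMIs, 30 and 57, and Sgcd on 228.

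Among the 10 lowest genes, Id3, a BMP-induced inhibitor of differentiation, was 92.6 CPM in vehicle (81.6 to 104.7) and 29.6 in WQ-2101 (26.6 to 32.8), a log2 ratio of -1.50, against -1.03 in the other barcodes. Its relative Id1 was 64.0 and 27.9 (-1.07 and -0.34). Btg2, an antiproliferative p53 target, was 128 and 43.3 (-1.46 and -0.52), Fosb 372 and 169 (-1.11 and -0.84), and Zfp36, which destabilises inflammatory mRNAs, 128 and 59.5 (-1.04 and -0.49). Immediate early genes as a list had a median of -0.45 in the group, 11 of 28 lower and 0 higher, and of -0.17 outside, 2 lower.

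The lowest of the 10 was Atp2c2 (-1.61, and 0.39 outside), but it stood at -0.21 with ranking within each library. The others were Gm47080 (53.9 and 22.5, -1.10 and 0.12), Klk8 (72.4 and 29.2, -1.18 and -0.44), Col1a1 (107 and 36.1, -1.45 and -0.51) and Dcn (555 and 268, -1.03 and -0.46). A single vehicle barcode held 52.4% of the Col1a1 UMIs and 1 held 24.5% of those of Klk8. Col1a1 stood at -0.29 with the score lacking Dnajb1, and Gm47080 at -0.33 with ranking within each library. G2 and mitosis genes had a median of 0.46 between the libraries in the group, 3 of 24 higher, and of -0.01 outside. Hypoxia genes had a median of 0.32 in the group and 0.43 outside. The 5 tested HSP70 and HSP110 genes had medians of 0.11 in the group and -0.01 outside.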

How the data were processed

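Both matrices held the UMI counts that the authors deposited, as whole numbers without scaling, from 14374 vehicle barcodes (184754398 UMIs) and 18142 WQ-2101 barcodes (185587327 UMIs). 73 barcode sequences occurred in both libraries. Per the file headers they came from Cell Ranger 7.2.0. The submitters' processing notes name version 2.2.2 instead and GRCm38 as the build. The sources used here do not give the annotation release, the intron setting or any free RNA correction. Coordinates came from GENCODE vM21 of GRCm38 by Ensembl identifier (32158 of 32285 matched).

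Counts were gated, scored and summed per library with Python 3.11.15, numpy 2.4.6, scipy 1.17.1, pandas 2.3.3, anndata 0.12.19 and matplotlib 3.10.9. Ratios were log2 of CPM plus 5 over CPM plus 5, for genes with a mean of 20 CPM. The 4 score genes were left out of counts. Scrublet in scanpy 1.11.5 called 546 (3.80%) and 849 (4.68%) barcodes of all deposited as doublets, which were removed in an alternative alone. The members and the gene lists were chosen with earlier results of these data known. Named genes were the 20 highest and up to 12 lowest (10 passed) by the smaller of both libraries' ratios past 1.5-fold, the 10 highest and 10 lowest between libraries within the group whose interval excluded a ratio of 1, up to 4 genes a list past 1.5-fold in both, chaperone genes, and Phgdh. One gene that this rule picks is not reported here. Genes named outside this rule were chosen after their values were seen. Counting was tested on simulated data with known changes. Alternatives covered the size of the top group, pooling, depth, split UMIs, doublets, gate limits, score genes, pseudocount, low-level filter and weighting of barcodes. Centring on the median gene, the joint count over both libraries, rankings by a single gene and the motif search were added after seeing the data.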

Additional observations from a re-analysis of the deposited data

How the results depend on the processing

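The ratio of chaperone-high shares (3.81) lay between 3.23 (score without Dnajb1) and 4.26 (score without Hspa1b), and ranking within each library fixes it at 1. Rankings by a single gene were not counted among these alternatives. The top 8% by Cryab alone held 275 vehicle and 784 WQ-2101 barcodes, and by Hspa1b alone 270 and 789. By Dnajb1 alone it held 208 and 851, and by Hsph1 alone 175 and 884, against 179 and 880 in the group. The libraries thus differed less by Cryab, Hspa1b or Dnajb1 alone. Counts of genes past 1.5-fold moved more, and where no cause is named the cause was not tested. In the following, counts are given as higher in vehicle (main 147), lower in vehicle (437), higher in WQ-2101 (45), lower in WQ-2101 (14), higher in both (36), lower in both (10), and higher (128) and lower (56) in WQ-2101 within the group, wherever they moved by over 1.5 times. With the top 4%, fewer barcodes, lower in vehicle was 815, higher and lower in WQ-2101 89 and 79, in both 70 and 52, and between libraries 286 and 87. With the top 16%, vehicle had 86 and 118, WQ-2101 22 and 8, both 19 and 3, and higher between libraries 44. With the top 8% taken within each library, vehicle had 80 and 85, lower in WQ-2101 41 and higher between libraries 46.

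Reduced to 3000 UMIs, where counts are fewer, lower in WQ-2101 was 30 and between libraries 335 and 225. With Hmga2 of at least 6 UMIs, lower in vehicle was 164, WQ-2101 28 and 6, lower in both 3 and higher between libraries 75. Without Cryab in the score, lower in vehicle was 254, in WQ-2101 5 and in both 3. Without Hsph1, lower in WQ-2101 was 29 and in both 16. Split UMIs gave 5 lower in both. CPM plus 20, which shrinks low genes, gave 94 and 126 in vehicle, 27 and 2 in WQ-2101, 23 and 2 in both, and 35 and 33 between libraries. CPM plus 1 gave 24 lower in WQ-2101 and 206 higher between libraries. A mean of 5 CPM, with more genes tested, gave 26 lower in WQ-2101, 16 in both, and 252 and 116 between libraries. A mean of 50 CPM, with fewer, gave 85 and 199 in vehicle, 7 lower in WQ-2101, 6 in both, and 43 and 33 between libraries. Centring gave 282 and 129 in vehicle, 3 lower in WQ-2101, and 59 and 2 in both.

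Of the 36 genes higher in both, 34 were shared with the top 4%, 17 with the top 16%, 28 with ranking within libraries, 22 with reduced depth, 29 with split UMIs, 21 with Hmga2 of at least 6 UMIs, 23 with CPM plus 20 and 35 without doublets. The 10 lower in both held less well: 10 were shared with the top 4%, 1 with the top 16%, 6 with ranking within libraries, 3 with reduced depth, 1 without Cryab in the score, and 2 each with split UMIs, Hmga2 of at least 6 UMIs, CPM plus 20 and centring. In WQ-2101, Elovl6 and Erg28 missed 1.5-fold in 10 of 19 alternatives, Hist1h1b in 8, and Tk1, Rrm2 and Cfap69 in 7. In vehicle Rrm2 missed it in 4, with a log2 ratio from -1.27 to -0.09. Some of the 20 named higher genes missed 1.5-fold too. In vehicle, Numb did so in 5 alternatives (lowest 0.32), Tnfaip6 in 4 (lowest 0.18) and Slc4a4 in 3. In WQ-2101, Gdf15, Gm11290, Numb and Tnfaip6 did so in 2 each and Bdnf in 1. Between libraries in the group, ratios ranged from -1.79 to -0.21 for Atp2c2, -1.62 to -0.29 for Col1a1, -1.39 to -0.33 for Gm47080 and 0.37 to 1.12 for Adamts6. Named-gene directions turned in 4 cases. With reduced depth Edil3 went to -0.0924 between libraries in the group and to 0.40 for the group over others in vehicle. With ranking within libraries, Gadd45g went to 0.0049 and Gm41609 to 0.34 between libraries. Hypoxia medians ranged from 0.60 to 1.02 in vehicle and 0.38 to 0.57 in WQ-2101, and G2 and mitosis medians in WQ-2101 from -0.27 to 0.03. No paired analysis was possible because each group was 1 library, and for the same reason no replicate could be left out.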
